A study of Mus musculus with 12 samples.

Results

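Untreated mouse embryonic fibroblasts without the retinoblastoma gene Rb1 (Rb null, or Rb-/-) were compared with untreated wildtype fibroblasts over every measured gene, and most of the description concerns genes outside the cell cycle. The 6 arrays were taken by their titles, 3 of untreated Rb-/- MEFs and 3 of untreated WT MEFs, out of 12 in the series. MEFs are primary connective tissue cells, here taken from embryos of embryonic day 13.5 and harvested at passage 2. The remaining 6 arrays hold the same genotypes after 24 h in 16 µM cisplatin, a DNA-damaging platinum drug, and serve below as a measure of the genotype difference in other samples. RNA of each group was hybridized to Affymetrix expression arrays in triplicate, and the design text speaks of 4 RNA samples in all, and a p-value here then covers hybridization error within an RNA, not the spread between cultures. The mouse strain, the number of embryos behind each RNA and whether they were littermates are not given in the sources used here. Array signals below are in the scaled units of the Affymetrix MAS5 software, with ± for the SD over 3 arrays. Log2 differences are Rb null minus wildtype, with ± for limma's standard error, and n = 3 hybridizations in each group throughout.

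The product of Rb1 binds factors of the E2F family and holds their target genes, most of them genes of DNA replication and division, at a low level until a cell commits to S phase. It also binds factors that act in muscle, bone and fat differentiation, and it recruits enzymes that modify chromatin. In embryonic fibroblasts its loss is best known for raised E2F target genes, while the transcripts that differ beyond the cell cycle are less often described.

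The targeted gene was checked first. Rb1 had signals of 105, 91.7 and 85.3 on the Rb null arrays and 419.9, 472 and 488 on the wildtype arrays. All 3 Rb null arrays lay far below all 3 wildtype arrays, and the log2 difference was -2.17 ± 0.15 (adjusted p = 3.54e-08, limma). The deleted part of Rb1 and the place of this probe set relative to it are not given in the sources used here, so the remaining signal of the Rb null arrays cannot be read as transcript or background. Transcripts of the sex chromosomes also separated the groups. Xist, the RNA that coats the inactive X chromosome of female cells, had 2843, 3494 and 3081 on the Rb null arrays against 118, 115 and 163 on the wildtype arrays. The Y-linked translation factor gene Eif2s3y had means of 1.43 and 478, and the Y-linked demethylase gene Uty had 25 and 199. The untreated wildtype arrays differed in this from the arrays of the other 3 groups, since cisplatin-treated wildtype cells had an Xist mean of 2379 and an Eif2s3y mean of 1.27. Genotype and the source of the untreated wildtype culture therefore cannot be told apart in the untreated comparison. Many results below, though not all, are set beside the comparison after cisplatin, which holds other arrays.

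Both groups carried fibroblast transcripts at a high level. The 12 fibroblast markers summed to 79701 to 82126 on the Rb null arrays and to 81247 to 85452 on the wildtype arrays, and vimentin (Vim), fibronectin (Fn1) and the collagen gene Col1a1 were not called on the probe sets used, although the other Fn1 probe set was lower (log2 -0.70). Of the 12 markers 2 were higher in Rb null cells, the calcium-binding protein gene S100a4 (log2 0.88 ± 0.075) and the growth factor receptor gene Pdgfra (0.96 ± 0.21), and 0 were lower, while limma gave 2 lower at an unadjusted p under 0.05. Endothelial markers summed to 355 to 593 and 384 to 718, with Vwf and Tie1 near 0, and erythroid markers to 21.7 to 98.7 and 31 to 104. Arrays within a group correlated at 0.981 to 0.992 over the tested probe sets, and arrays of different genotype at 0.941 to 0.952.

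Of 13575 probe sets tested, 7.68% were higher and 4.69% lower in Rb null cells. Of 7945 genes, 641 were higher (8.07%) and 404 lower (5.08%), so that 13.2% were called, where a call needed a Benjamini-Hochberg adjusted p under 0.05 and at least 1.5-fold. A large share of the rises belonged to lists of replication, mitosis and repair genes. The 5 histone genes tested, which were counted with the cell cycle, were all lower. Of 309 genes tested on the replication, mitosis, repair and histone lists, 221 were higher and 7 lower. These genes and 7 sex-linked ones were set aside. Among the 7629 genes left, 418 were higher (5.48%) and 397 lower (5.2%), so 10.7% were called and the directions were nearly balanced. The median fold of the rises was 1.75 and of the falls 1.73, and 121 rises and 103 falls reached 2-fold. Of the called genes, the arrays of the groups did not overlap for 416 of the 418 and 392 of the 397, against 45.7% of all 7629 genes. Median centring of the arrays gave 373 higher and 450 lower outside the cell cycle, and the log2 medians of the untreated groups differ by 0.0333. RNA of a whole culture was measured, so fewer cells of a type and less RNA per cell cannot be told apart.

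The largest rise outside the lists was that of Pask, which encodes a metabolic sensor kinase. Its signals were 239, 212 and 223 on Rb null arrays and 17.6, 47.7 and 21.4 on wildtype arrays, a log2 difference of 2.66 ± 0.28 (6.3-fold, adjusted p = 3.83e-06). Slc27a3, a fatty acid transporter and acyl-CoA synthetase gene, had 174, 188 and 163 against 18.5, 32.6 and 17 (log2 2.51 ± 0.16), and the purine nucleobase transporter gene Slc43a3 had 448, 466 and 489.5 against 92.8, 83.6 and 70.2 (2.38 ± 0.12). The wildtype signals of Pask and Slc27a3 lie near the bottom of the scale, where the log2 scale used understates a fold. The endosomal protein gene Nsg1 rose from 259 ± 27.6 in wildtype to 1289.8 ± 125 in Rb null cells and the phosphoinositide phosphatase gene Mtm1 from 88.5 ± 16.9 to 464 ± 63.2 (4.81-fold). Aqp1, a water channel gene, had 243, 265 and 250.5 on Rb null arrays and 47.3, 59.9 and 53.4 on wildtype arrays (log2 2.04 ± 0.10). Efemp1, the gene of the matrix protein fibulin-3, was higher by 2.05 ± 0.23, the hypertrophic cartilage collagen gene Col10a1 by 2.15 ± 0.20 and the phospholipid acyltransferase gene Mboat1 by 1.96 ± 0.16.

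Of the 15 largest rises, 4 encode proteins of DNA replication or repair that the cell cycle lists did not hold. Fam111a, a replication fork protease gene, had 1458, 1598 and 1474 in Rb null against 356, 286 and 315 in wildtype cells (log2 2.21 ± 0.092). Dnajc9, a histone chaperone gene, had 2062, 2333 and 2147 against 611, 644 and 662 (1.75 ± 0.069, adjusted p = 2.39e-10). Etaa1, an activator of the ATR checkpoint kinase, and Fignl1, a recombination factor gene, were higher by 1.94 ± 0.32 and 1.91 ± 0.11. Setting aside the lists therefore did not remove every gene of DNA synthesis. The phosphatase gene Ptp4a3 was higher on its brighter probe set (1.90 ± 0.083), while its other probe set had a log2 difference of -0.10 that was not called. After cisplatin 13 of the 15 were again higher in Rb null cells, where 8.43% of the genes outside the lists were higher and 13.8% lower. The exceptions were Aqp1, with log2 -1.86 ± 0.10, and Col10a1, with -0.89 ± 0.20, both lower in Rb null cells after cisplatin.

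**Figure D1:**
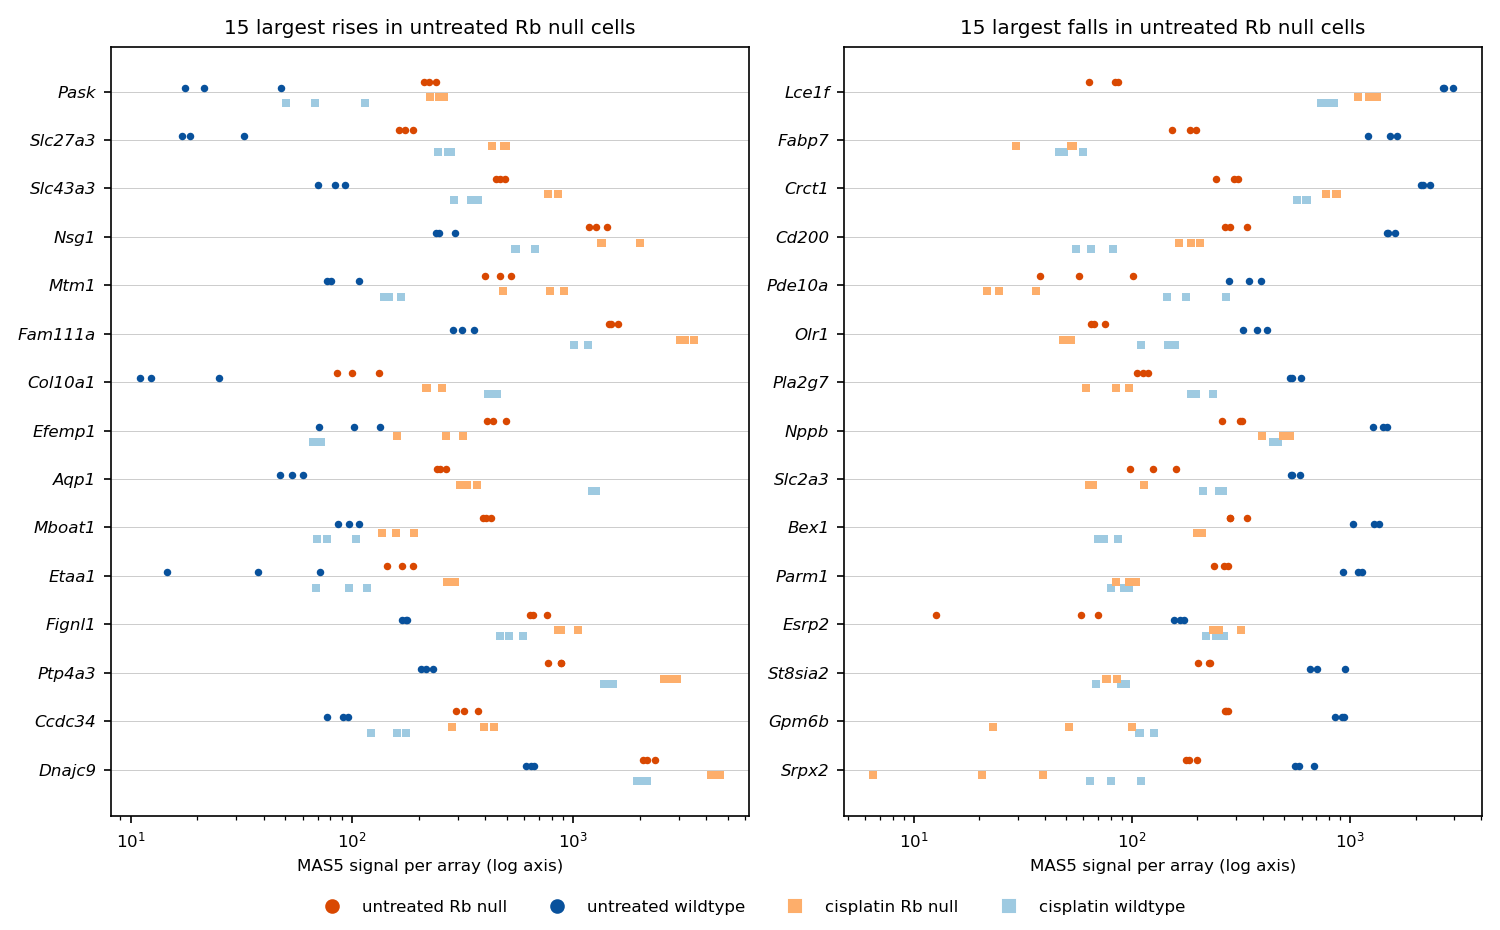
MAS5 signal on each of the 12 arrays (log axis) for the 15 largest rises (left) and the 15 largest falls (right) in untreated Rb null cells, outside the cell cycle and sex-linked lists. Each point is 1 array; circles are untreated and squares cisplatin-treated cells, orange Rb null and blue wildtype. The untreated groups do not overlap for any gene shown, by the rule of choice, and for Aqp1 and Col10a1 the wildtype squares lie to the right of the Rb null squares.

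Promoter sequence was examined because E2F factors are the best known partners of the retinoblastoma protein. Windows of 300 bases, from 250 before to 50 after the start of each gene in RefSeq's mouse assembly GRCm38.p6, were searched on both strands for the 8-base E2F-type words TTTCCCGC, TTTCGCGC, TTTGCCGC and TTTGGCGC, whose reverse complements are GCGGGAAA, GCGCGAAA, GCGGCAAA and GCGCCAAA. A word was present in 2.26% of all 32851 windows. The other shares are of genes, where a word in any window of a gene counts. Of the 6498 tested genes with a window, 5.08% held a word. Among genes of the cell cycle lists that were higher, 19.5% held a word (36 of 185), and among higher genes outside the lists 10.5% (36 of 344). Of the genes outside the lists that were not called, 4.24% held one (236 of 5569), and of the lower genes 1.89% (6 of 318). The share was 10.7% among the genes higher in both genotype comparisons and 10.3% among those not called higher after cisplatin. A match is a description of the window and no measure of binding. The windows of the 4 genes with the largest rise among those holding a word, picked after their values were seen, are printed 5′ to 3′ on the gene's own strand, with the word in capitals. Dnajc9 lies at chr14:20388861-20389160 on the minus strand, Ackr3, a chemokine-scavenging receptor gene, at chr1:90203730-90204029 on the plus strand, the stress kinase gene Mapk13 at chr17:28769067-28769366 on the plus strand, and Casp8ap2, a gene of histone transcript processing, at chr4:32615220-32615519 on the plus strand.
Dnajc9: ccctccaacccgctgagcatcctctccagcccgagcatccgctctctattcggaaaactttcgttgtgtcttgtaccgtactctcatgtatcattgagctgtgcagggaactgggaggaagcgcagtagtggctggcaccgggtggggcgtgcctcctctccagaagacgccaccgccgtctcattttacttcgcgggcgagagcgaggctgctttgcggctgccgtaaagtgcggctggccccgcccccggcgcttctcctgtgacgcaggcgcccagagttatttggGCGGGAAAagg
Ackr3: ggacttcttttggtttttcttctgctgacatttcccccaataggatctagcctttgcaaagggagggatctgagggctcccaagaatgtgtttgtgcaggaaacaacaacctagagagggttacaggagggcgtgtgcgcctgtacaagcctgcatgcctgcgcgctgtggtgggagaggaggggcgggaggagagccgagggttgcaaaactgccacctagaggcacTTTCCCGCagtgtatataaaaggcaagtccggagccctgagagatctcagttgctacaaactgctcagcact
Mapk13: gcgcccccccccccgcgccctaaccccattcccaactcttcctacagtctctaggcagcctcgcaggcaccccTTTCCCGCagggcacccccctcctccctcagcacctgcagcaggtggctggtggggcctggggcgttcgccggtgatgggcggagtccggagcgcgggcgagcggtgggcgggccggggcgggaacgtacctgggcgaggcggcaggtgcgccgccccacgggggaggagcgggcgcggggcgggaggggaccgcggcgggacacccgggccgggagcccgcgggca
Casp8ap2: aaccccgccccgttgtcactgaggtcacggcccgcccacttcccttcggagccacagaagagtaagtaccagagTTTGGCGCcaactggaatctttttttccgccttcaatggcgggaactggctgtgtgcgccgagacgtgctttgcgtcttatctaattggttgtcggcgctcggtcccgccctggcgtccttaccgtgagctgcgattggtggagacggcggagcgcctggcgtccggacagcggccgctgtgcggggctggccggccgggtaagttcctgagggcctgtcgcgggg

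The word begins 40 bases after the start of Dnajc9, 22 bases before that of Ackr3 and about as far upstream, 177 and 176 bases, in Mapk13 and Casp8ap2. Ackr3 had 274, 390.5 and 282 on Rb null arrays against 81.5, 95.5 and 98.6 on wildtype arrays (log2 1.66 ± 0.15), and Casp8ap2 was higher by 1.49 ± 0.15. Both were also higher in Rb null cells after cisplatin, by 1.91 ± 0.15 and 1.45 ± 0.15. Mapk13 had 399.5, 418 and 398 against 119, 150.3 and 127 (1.55 ± 0.091), but after cisplatin it was lower in Rb null cells (-0.75 ± 0.091).

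The falls were led by genes of skin barrier, nervous tissue and cell surface. Lce1f, which encodes a protein of the cornified envelope of epidermis, had 63.5, 83.4 and 86 on Rb null arrays and 2687, 2970.1 and 2669 on wildtype arrays, a log2 difference of -4.99 ± 0.11 (31.8-fold, adjusted p = 1.26e-12). Crct1, another gene of cornified epithelium, had 293, 243 and 307 against 2322, 2122 and 2163 (-2.93 ± 0.094). Fabp7, the brain fatty acid carrier of glial precursors, had 197, 184 and 153 against 1210.1, 1649 and 1532 (-2.96 ± 0.19), and no array of a group came near the other group. Cd200, a surface glycoprotein that restrains myeloid cells, had 338, 268 and 282 against 1492, 1476 and 1603 (-2.33 ± 0.13). The cyclic nucleotide phosphodiesterase gene Pde10a (-2.27 ± 0.29), the oxidized lipoprotein receptor gene Olr1 (-2.26 ± 0.17), the platelet-activating factor hydrolase gene Pla2g7 (-2.21 ± 0.15) and the natriuretic peptide gene Nppb (-2.19 ± 0.11) were the next. Slc2a3, the gene of the glucose transporter GLUT3, had 159, 98.6 and 125 against 536, 592 and 545 (-2.06 ± 0.20). Bex1, Parm1, Esrp2, St8sia2 and Srpx2 had log2 differences from -1.98 to -1.65, among them the splicing regulator gene Esrp2, of epithelial cells, and the polysialic acid synthase gene St8sia2.

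The falls were followed into the comparison after cisplatin in the same way. After cisplatin 6 of the 15 were again lower in Rb null cells, 6 were not called and 3 were higher. Pde10a (-2.43 ± 0.29), Srpx2 (-1.66 ± 0.29) and Slc2a3 (-1.49 ± 0.20) were lower in both comparisons. Fabp7 was down to means of 45.4 in Rb null and 51.6 in wildtype cells under cisplatin, Parm1 to 95.5 and 89.6, and St8sia2 to 79.7 and 84.1, so these genes had little signal left in either genotype. Lce1f (0.62 ± 0.11), Cd200 (1.33 ± 0.13) and Bex1 (1.29 ± 0.12) were higher in Rb null cells after cisplatin. The test of the difference between the genotype comparisons gave adjusted p = 3.15e-11 for Lce1f, 8.41e-09 for Cd200 and 9.23e-09 for Bex1. Opposite calls in the comparisons nearly fix the outcome of this test, so it adds little for such genes.

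Over all genes called outside the cell cycle lists, 136 of the 418 rises (32.5%) were also higher in Rb null cells after cisplatin, 45 (10.8%) were lower and 237 were not called. Of the 397 falls, 121 (30.5%) were again lower, 36 (9.07%) were higher and 240 were not called. The comparison after cisplatin called 22.2% of these 7629 genes, 643 higher and 1051 lower. The difference between the genotype comparisons passed on adjusted p for 250 of the rises and 234 of the falls, against 38.2% of all 7629 genes. The called genes were chosen by the untreated difference, which is part of this test, so a larger share among them is partly built in. Among the rises, 323 of 418 had their lowest group mean in untreated wildtype cells, and in 169 the untreated Rb null mean was the highest of the 4 groups. Among the falls, 256 of 397 had their highest mean in untreated wildtype cells, and in 202 the untreated Rb null mean was the lowest. The untreated wildtype group was thus the outermost of the 4 groups more often than the untreated Rb null group in both directions.

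**Figure D2:**
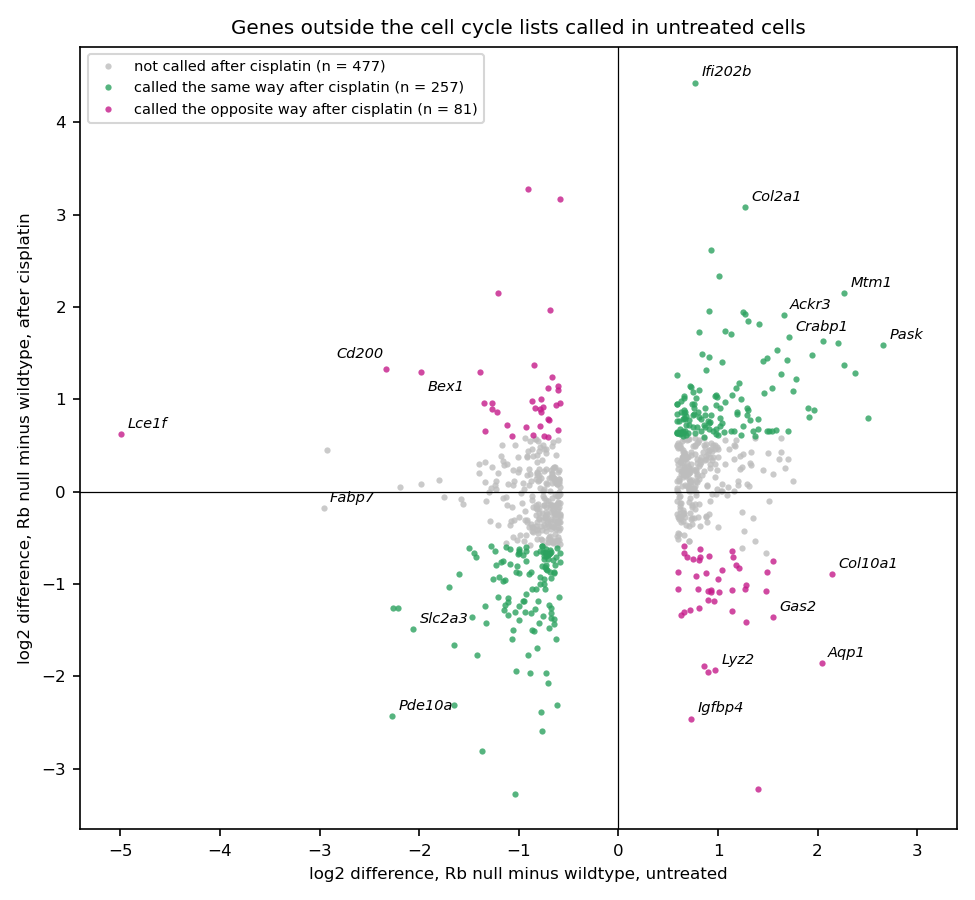
Log2 difference of Rb null minus wildtype after cisplatin (vertical) against that in untreated cells (horizontal) for the 815 genes outside the cell cycle lists called in untreated cells. Each point is 1 gene, and the empty band around 0 on the horizontal axis is set by the 1.5-fold minimum. Green points (257) were called the same way in both comparisons, magenta points (81) in opposite directions, and grey points (477) were not called after cisplatin.

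Genes of the same function were then grouped in 51 lists outside the cell cycle and sex-linked ones, of which 49 had at least 10 tested members. The lists were chosen with earlier results of these data known, so their counts are described beside the background of 5.48% higher and 5.2% lower and the median log2 difference of -0.021 over the 7629 genes, without a test of the list. Members also on the cell cycle lists stayed in, 5 of the p53 list and 1 each of the ribosome biogenesis and imprinted lists. Each gene is given by 1 probe set. Of 74 called genes named in the text with several tested probe sets, all sets were called for 41 and some were not for 33, among them Samhd1 (1 of 4 called, log2 0.071 to 0.98), Malat1 (1 of 5, -0.85 to -0.15) and Kitl (1 of 2, 0.30 to 1.70), and the signs differed for Ptp4a3, Masp1 and Bcl2l11.

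**Figure D3:**
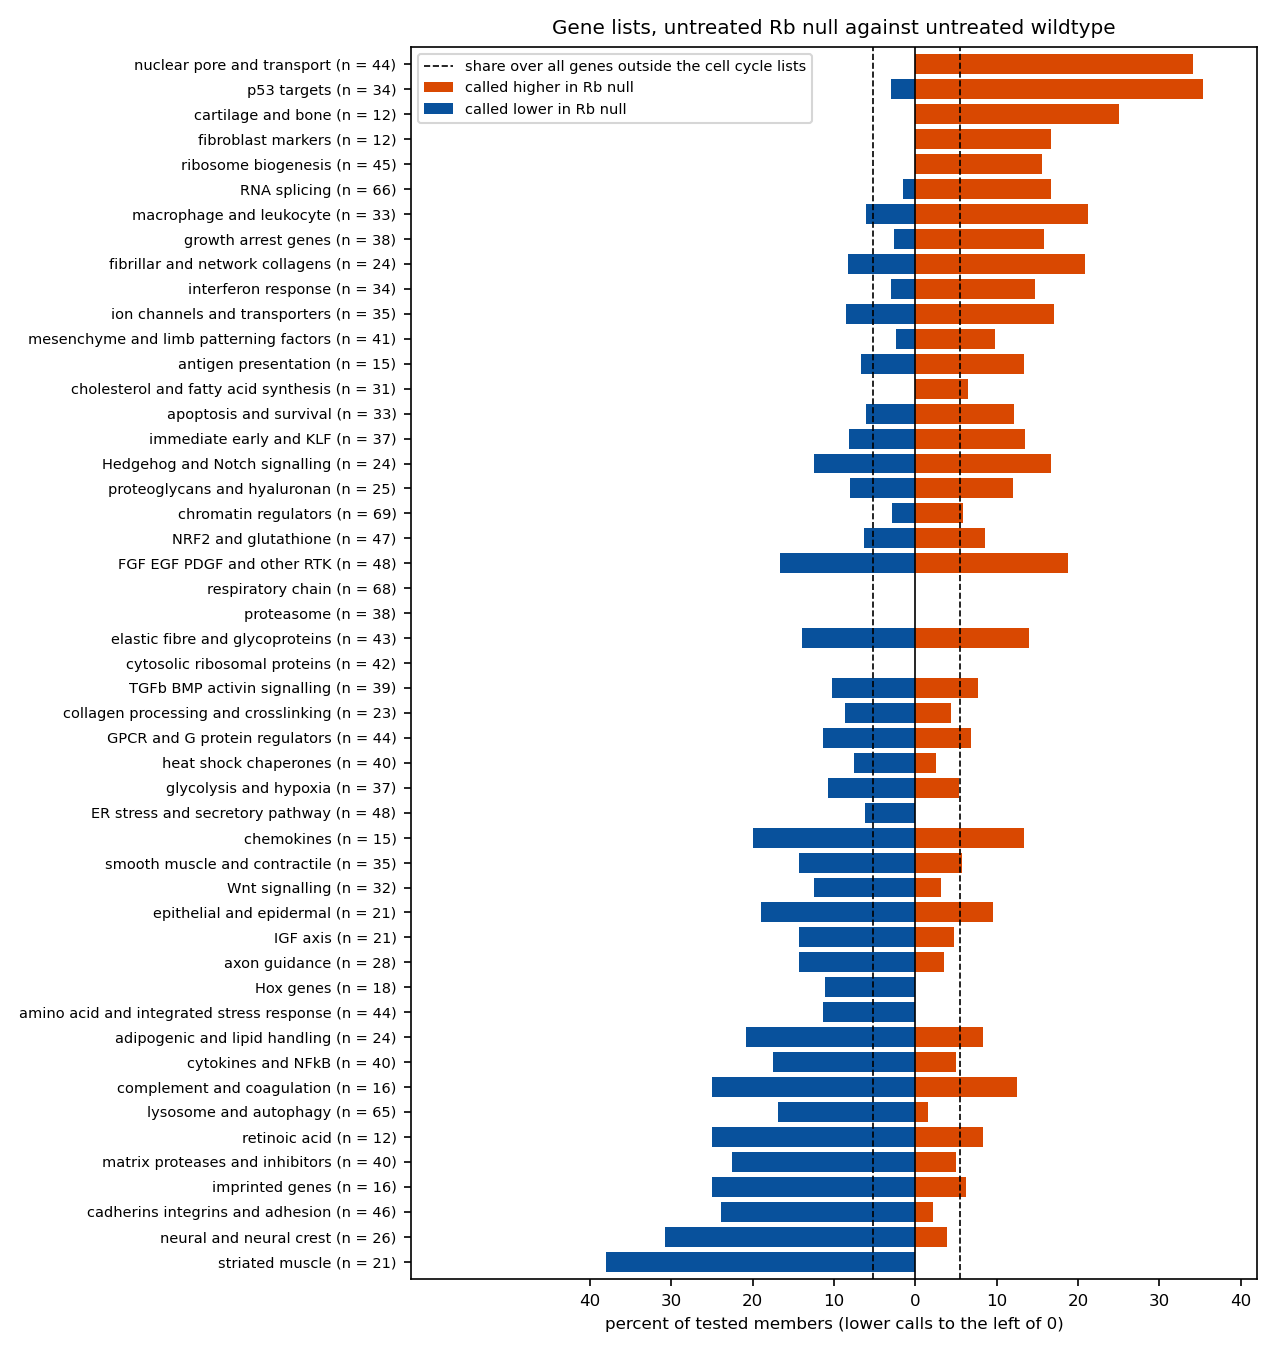
Share of tested members called higher (orange, to the right) and lower (blue, to the left) in untreated Rb null cells for the 49 lists with at least 10 tested members, ordered by the difference of the shares; n is the number of tested members. Dashed lines mark the shares over all genes outside the cell cycle lists, 5.48% higher and 5.2% lower. Nuclear pore genes stand at the top with 15 of 44 higher, striated muscle genes at the bottom with 8 of 21 lower, and 3 lists have no bar.

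Genes of the nuclear pore and of nuclear transport were higher for 15 of 44 and lower for 0 (5 lower at an unadjusted p under 0.05 with limma), with a median log2 difference of 0.31. The pore is a ring of nucleoporins through which importins and exportins carry cargo between nucleus and cytoplasm. Nup85, of the Y-shaped scaffold complex, had 1093, 1328 and 1216 on Rb null arrays and 440.0, 432 and 393 on wildtype arrays (2.82-fold, adjusted p = 4.61e-09). Every Rb null array was above every wildtype array by a wide margin. Its scaffold partner Nup37 had 883, 1083 and 1042 against 438, 447 and 439 (1.16 ± 0.091), the inner ring gene Nup155 862, 1005 and 868 against 424, 488 and 464 (0.97 ± 0.10), and the membrane anchor gene Ndc1 665, 677 and 615 against 395, 316 and 308 (0.93 ± 0.11). In 12 of the 15 the untreated wildtype mean was the lowest of the 4 groups, against 323 of all 418 rises outside the lists. After cisplatin 5 members were higher and 3 lower, the differences of Nup85 and Ndc1 were 0.42 ± 0.082 and 0.46 ± 0.11, below the fold minimum, and that of Nup37 was 0.01 ± 0.091. Several nucleoporins also serve at the kinetochore in mitosis, and the mitosis list moved the same way (102 of 120 higher), and its part in the nuclear pore result was not tested.

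Of 66 RNA splicing genes, 11 were higher and 1 lower, with a median of 0.32, and 58 of the 66 differences lay above 0. Lsm2, part of a protein ring that binds U6 RNA, had 995, 1037 and 1043 in Rb null and 417, 459.5 and 397 in wildtype cells (log2 1.25 ± 0.075, adjusted p = 1.04e-08, limma). The others were smaller: the RNA-binding protein gene Khdrbs1 was higher by 0.78 ± 0.12, the SR protein gene Srsf4 by 0.75 ± 0.066 and the U2 particle gene Sf3a3 by 0.74 ± 0.13. The exception was Malat1, a long noncoding RNA of nuclear speckles, with 177, 249.5 and 362 against 520.3, 446 and 425 (-0.85 ± 0.23), which was not called without Rb null replicate 1, the lowest of the 3. Of 45 ribosome biogenesis genes, 7 were higher and 0 lower (1 lower at an unadjusted p under 0.05 with limma), led by Rrp1b (0.78 ± 0.10), the rDNA transcription factor gene Tcof1 (0.71 ± 0.13) and Gar1 of the pseudouridylation particles (0.68 ± 0.13). In all 7 the untreated wildtype mean was the lowest of the 4 groups, against 323 of the 418 rises. After cisplatin 10 splicing genes were higher and 4 lower, Srsf4 among the higher (0.70 ± 0.066) and Khdrbs1 among the lower (-0.91 ± 0.12).

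Of 34 genes activated by the damage-response factor p53, 12 were higher and 1 lower, and their median was 0.35. The list holds several mitotic genes, and 5 of the 34 are also on the cell cycle lists, which the background leaves out. Ckap2, a spindle protein gene and 1 of these 5, differed most, with 1800.4, 1715 and 1733 against 389, 458 and 483 (log2 1.96 ± 0.095). Dram1, a lysosomal protein gene of autophagy, had 404, 380.2 and 380.1 against 154, 196 and 118 (1.29 ± 0.15), and the phospholipid transfer gene Pltp 665, 458 and 639 against 231, 276 and 219.7 (1.23 ± 0.13). The desmosomal gene Perp was higher by 1.04 ± 0.14. In all 12 the untreated wildtype mean was the lowest of the 4 groups, against 323 of the 418 rises outside the lists. After cisplatin 10 members were higher and 1 lower in Rb null cells. Death genes split: the receptor gene Fas (0.84 ± 0.15), Bcl2l11, of the BH3-only class (0.65 ± 0.12 on the probe set used, the only one called of 5, which ranged from -0.051), Casp2 (0.63 ± 0.071) and Bok (0.60 ± 0.11) were higher. Pmaip1, another BH3-only gene and a p53 target, had 861, 703 and 716 against 1572, 1877 and 1742 (-1.18 ± 0.11), and the necroptosis kinase gene Ripk3 was lower too (-0.75 ± 0.063). Chromatin regulators had few calls, 4 higher and 2 lower of 69, with the H3K4 demethylase gene Kdm5b at -1.06 ± 0.11 and the Polycomb genes Cbx6 at 0.79 ± 0.13 and Cbx2 at 0.69 ± 0.12. Without Rb null replicate 1, 2 were higher and 1 lower.

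Genes of the lysosome and of autophagy, the routes by which cells degrade their own material, were lower for 11 of 65 and higher for 1, with a median of -0.27, and 57 of the 65 differences lay below 0. Gabarapl1, an ubiquitin-like protein of the autophagosome membrane, had 1372, 1322 and 1155 on Rb null arrays and 2762, 2538 and 2287 on wildtype arrays (log2 -0.97 ± 0.085, adjusted p = 6.35e-07). Its relative Map1lc3b had 1504, 1680.4 and 1619.5 against 2979, 2737 and 2658 (-0.80 ± 0.073), and Atg12, which is joined to another protein of the pathway, 302, 341 and 316 against 568, 626 and 613 (-0.89 ± 0.081). The groups were well separated for all 3 of these autophagy genes. The lysosomal galactosidase gene Gla, on the X chromosome, had a log2 difference of -0.88 ± 0.11, and the only rise was Cln6, an endoplasmic reticulum protein gene mutated in a lysosomal storage disease (0.97 ± 0.10). After cisplatin 6 members were higher and 12 lower, Gla among the lower (-1.31 ± 0.11) and Cln6 among the higher (1.03 ± 0.10), while Gabarapl1 (-0.12 ± 0.085) and Map1lc3b (0.13 ± 0.073) did not pass. The test of the difference gave adjusted p = 8.43e-05 for Gabarapl1 and 1.03e-05 for Map1lc3b.

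**Figure D4:**
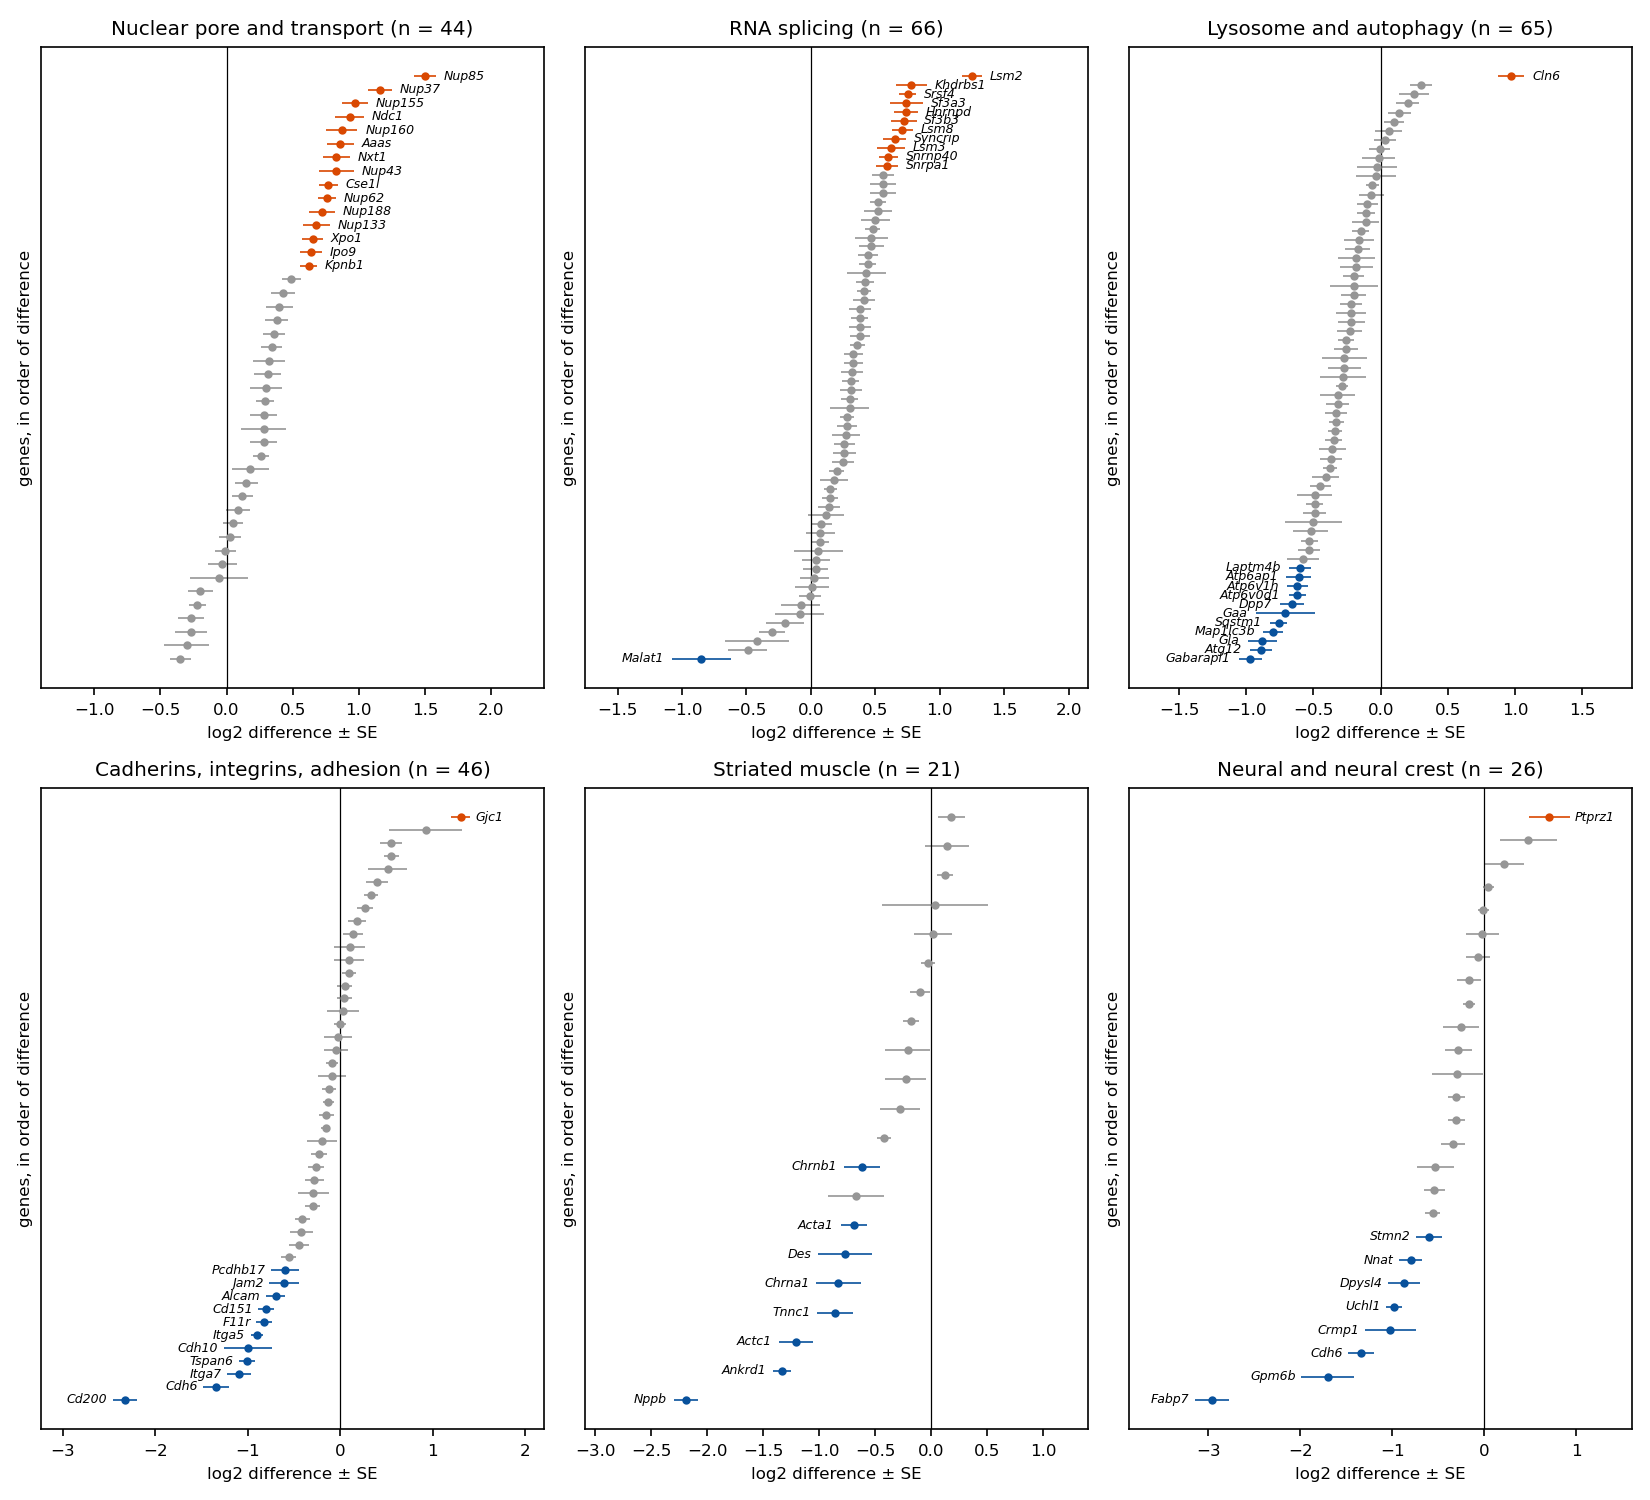
Log2 difference of Rb null minus wildtype in untreated cells for every tested member of 6 lists, ordered by size; horizontal bars are limma's standard errors and n is the number of tested members. Orange points were called higher, blue points lower and grey points were not called. Nuclear pore and splicing genes have their calls on the right (15 and 11 genes), and the lysosome, adhesion, striated muscle and neural lists have theirs on the left (11, 11, 8 and 8 genes).

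Cell adhesion genes, among them cadherins, integrins and tetraspanins, were lower for 11 of 46 and higher for 1, with a median of -0.14. Beside Cd200, the lower members were led by Cdh6, a cadherin of kidney and neural crest, with 190.4, 176 and 165 against 394, 501 and 502 (log2 -1.34 ± 0.14), the laminin receptor gene Itga7 (-1.09 ± 0.13) and the tetraspanin gene Tspan6 (-1.01 ± 0.089). The rise was Gjc1, the gene of the gap junction protein connexin 45, which had 968, 987 and 976 against 360.0, 439.5 and 374 (1.30 ± 0.10). In 9 of the 11 the untreated wildtype mean was the highest of the 4 groups, against 256 of all 397 falls outside the lists. With the 60% weakest probe sets left out 5 adhesion genes were lower. After cisplatin 5 adhesion genes were higher and 14 lower in Rb null cells, Itga7 (-0.78 ± 0.13) among the lower and Gjc1 (0.88 ± 0.10) among the higher.

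Of 24 collagen genes 5 were higher and 2 lower, and of 43 genes of elastic fibres and matrix glycoproteins 6 were higher and 6 lower. Genes of the beaded filament collagen VI rose: Col6a3 had 3439.7, 3617 and 3406 against 1236, 1544 and 1533 (log2 1.28 ± 0.10), and Col6a1 3066, 3011 and 2879 against 1714, 1698 and 1655 (0.82 ± 0.06). The cartilage collagen gene Col2a1 was higher as well (1.27 ± 0.28), while Col7a1, of anchoring fibrils (-0.84 ± 0.087), and Col8a1 (-0.65 ± 0.065) were lower. Without wildtype replicate 2 the lower collagen genes numbered 5, and median centring gave 4. The chief fibril collagen genes Col1a1 (-0.14 ± 0.076) and Col1a2 (-0.10 ± 0.052) did not pass. Among glycoproteins, the calcification inhibitor gene Mgp had 3278, 3243 and 3234 against 1722, 1328 and 1363 (1.15 ± 0.08), and Smoc2 2394, 2059 and 2232 against 948, 1086 and 981 (1.14 ± 0.083). The microfibril gene Mfap5 had 962, 988 and 978 against 2149, 2189 and 2419 (-1.20 ± 0.074), and the matricellular genes Thbs2 (-0.76 ± 0.06), Postn (-0.75 ± 0.074) and Tnc (-0.74 ± 0.092) were lower.

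After cisplatin 15 collagen genes were lower in Rb null cells and 3 higher, and several genes of the untreated rises turned around. Col6a1 was at -0.71 ± 0.06, Col6a3 at -1.41 ± 0.10, Mgp at -0.71 ± 0.08 and Smoc2 at -1.07 ± 0.083, all called lower, and the differences between the comparisons passed, with adjusted p = 1.33e-08 for Col6a1 and 9.23e-09 for Col6a3. Mfap5 (-0.93 ± 0.074), Thbs2 (-1.35 ± 0.06) and Tnc (-1.06 ± 0.092) were lower in both comparisons, and Col2a1 was higher in both (3.08 ± 0.28 after cisplatin).

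Matrix proteases and their inhibitors were lower for 9 of 40 and higher for 2, with a median of -0.22, and 32 of the 40 differences lay below 0. Htra1, a secreted serine protease gene, had 1019.5, 1184 and 1069 on Rb null arrays and 3566, 3395 and 2998 on wildtype arrays (log2 -1.60 ± 0.12, adjusted p = 8.88e-08). Fap, the fibroblast activation protease gene, had 162, 171 and 157 against 526, 454 and 460.5 (2.82-fold), and the tissue plasminogen activator gene Plat 265, 264 and 275 against 701, 640.2 and 647 (-1.27 ± 0.08). The aggrecanase gene Adamts4 was lower by a similar amount (-1.43 ± 0.17). Higher were the stromelysin gene Mmp3 (1.27 ± 0.12) and the membrane protease gene Adam8 (0.81 ± 0.089), both of which were lower in Rb null cells after cisplatin (-1.05 ± 0.12 and -0.74 ± 0.089). Htra1 (-0.89 ± 0.12), Fap (-0.61 ± 0.15) and Adamts4 (-0.71 ± 0.17) were lower again after cisplatin, and Plat (0.27 ± 0.08) was not called. Of 23 genes that process and crosslink collagen 1 was higher, Loxl3 (0.91 ± 0.10), and 2 lower, the prolyl hydroxylase gene P3h1 (-0.95 ± 0.10) and the procollagen proteinase gene Bmp1 (-0.82 ± 0.065), while 22 of the 23 differences lay below 0 and 11 were lower and 1 higher at an unadjusted p under 0.05 with limma. Proteoglycan genes were higher for 3 of 25, led by Gpc3 (1.18 ± 0.14), and lower for 2, Prelp (-0.84 ± 0.18) and Gpc4 (-0.66 ± 0.061).

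Of 21 striated muscle genes, 8 were lower and 0 higher (also 0 at an unadjusted p under 0.05 with limma), with a median of -0.28. Nppb, the B-type natriuretic peptide gene, had 320.5, 260.5 and 312 on Rb null arrays and 1424, 1486 and 1270.1 on wildtype arrays (log2 -2.19 ± 0.11, adjusted p = 2.31e-09). Ankrd1, a stretch-responsive gene of the sarcomere, had 1502, 1330.2 and 1305 against 3734, 3243 and 3435 (-1.33 ± 0.081), and the cardiac actin gene Actc1 142, 110.3 and 155 against 337, 321 and 314 (-1.21 ± 0.15). Tnnc1, of the troponin complex (-0.86 ± 0.16), and the intermediate filament gene Des (-0.77 ± 0.24) were lower at weak signals. The 10 skeletal muscle markers summed to 2242 to 2325 on Rb null arrays and 3759.6 to 3911 on wildtype arrays, and their part in the result was not tested. The myogenic factors that define the lineage had means of 55 and 71.6 (Myod1), 36.2 and 50.1 (Myog) and 4.9 and 7.03 (Myf5), too low to be tested. After cisplatin the marker sums were 820.3 to 912 and 856 to 1064, 1 member of the list was higher and 2 lower, and Nppb (0.05 ± 0.11) and Ankrd1 (-0.10 ± 0.081) were not called. With the 60% weakest probe sets left out 3 muscle genes were lower.

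Contractile genes of smooth muscle and of activated fibroblasts were lower for 5 of 35 and higher for 2. The calponin gene Cnn1 had 2526, 3492 and 3249 against 4895, 4975 and 4779.9 (log2 -0.67 ± 0.095), the smooth muscle actin gene Actg2 was lower by a like amount (-0.73 ± 0.074), and the LIM protein gene Csrp2 had 1609, 1651 and 1584 against 3128, 3171 and 2908 (-0.92 ± 0.063). Other LIM protein genes went the opposite way: Crip1 had 1329, 1321 and 1316 against 520.5, 488 and 470.3 (1.41 ± 0.081), and Crip2 was higher by 0.95 ± 0.053. Without Rb null replicate 1 or without wildtype replicate 3 the lower members numbered 3. After cisplatin Crip1 was again higher (1.81 ± 0.081), whereas Cnn1 was higher in Rb null cells (1.24 ± 0.095).

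Of 26 neural and neural crest genes, 8 were lower and 1 higher, with a median of -0.30. Beside Fabp7, the myelin-related membrane protein gene Gpm6b had 270.3, 268 and 275 on Rb null arrays and 935, 855 and 920.1 on wildtype arrays (log2 -1.70 ± 0.29), and the axon growth gene Crmp1 was lower (-1.02 ± 0.28). The rise was the receptor phosphatase gene Ptprz1 (0.71 ± 0.22), whose arrays overlapped and which lost its call without Rb null replicate 1 or 3 or wildtype replicate 1 or 2. The 9 neural markers summed to 3502 to 4029.6 against 5452 to 6068, of which Fabp7 itself had means of 178 and 1464, Nes 1796 and 2277 and Ncam1 1084 and 1140.4, and their part in the result was not tested. In 7 of the 8 falls the untreated wildtype mean was the highest of the 4 groups, against 256 of all 397 falls. With the 60% weakest probe sets left out 1 gene of the list was lower. Of 28 axon guidance genes, 4 were lower and 1 higher: the semaphorin genes Sema4f (-1.33 ± 0.22) and Sema7a (-1.26 ± 0.15), the receptor genes Nrp2 (means of 486 and 978) and Epha4 (-0.61 ± 0.11), and, higher, Sema3f (1.51 ± 0.32). Sema4f (-1.42 ± 0.22), Sema7a (-0.95 ± 0.15) and Nrp2 (-0.64 ± 0.12) were lower in Rb null cells after cisplatin too. Of 21 epithelial and epidermal genes 4 were lower and 2 higher; beside Lce1f these were Krt20 (-1.09 ± 0.16), Lce1h (-1.05 ± 0.086, whose probes may bind related transcripts) and Krt18 (-0.93 ± 0.23, with overlapping arrays at weak signals), and the higher ones were the desmosomal genes Pkp1 (1.37 ± 0.31) and Perp. Epithelial markers were weak, with sums of 544 to 749 and 674 to 950.3 and with Epcam means of 6.17 and 13, and their part in the result was not tested.

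Genes of cartilage and bone were higher for 3 of 12, namely Col10a1, Col2a1 and Mgp, and lower for 0 (3 lower at an unadjusted p under 0.05 with limma). Without Rb null replicate 3 or without wildtype replicate 3 the higher members numbered 5. Patterning factors of mesenchyme and limb were higher for 4 of 41 and lower for 1, with a median of 0.24. They were the limb bud factor gene Prrx1, with 2113, 1919 and 2066 against 1226, 1145 and 1099 (log2 0.81 ± 0.074), the nuclear receptor gene Nr2f2 (0.89 ± 0.088), Snai1 (0.66 ± 0.10) and Foxf1 (0.62 ± 0.19), and, lower, Msx2 (-0.64 ± 0.14). Prrx1 was lower in Rb null cells after cisplatin (-1.26 ± 0.074). Hox genes, which give position along the body axis, were lower for 2 of 18, Hoxc4 (-1.39 ± 0.36) and Hoxa10 (-0.73 ± 0.15), and 17 of the 18 differences lay below 0. In the comparison after cisplatin Hoxc4 was higher in Rb null cells (1.29 ± 0.36) and Hoxa10 was again lower (-1.97 ± 0.15). Of 12 retinoic acid genes, the binding protein gene Crabp1 had 2039.6, 2227 and 2256 against 737, 658 and 585 (1.71 ± 0.10), and its relative Crabp2 123, 192 and 151 against 274, 334 and 350.4 (2.01-fold lower). These paralogs kept their opposite directions after cisplatin, at 1.67 ± 0.10 and -0.88 ± 0.15. The retinal synthesis gene Rdh10 (-0.69 ± 0.094) and the transglutaminase gene Tgm2 (-1.12 ± 0.072) were lower in untreated cells.

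Ligands and receptors of growth factor pathways changed in both directions, 9 higher and 8 lower of 48. Higher ligand genes were Kitl, with 278, 278 and 266 on Rb null arrays and 49.6, 77.7 and 116 on wildtype arrays (log2 1.70 ± 0.22), Fgf7, the keratinocyte growth factor gene, with 998, 1015 and 956 against 346, 371 and 325 (1.48 ± 0.076), Vegfb (1.70 ± 0.21) and Vegfd (1.28 ± 0.24). Lower were Angptl4, a secreted inhibitor of lipoprotein lipase (-1.42 ± 0.13), Nrp2, Vegfc (-0.82 ± 0.13) and Hbegf, with 3218, 3729.6 and 3606 against 6551, 5941 and 5886 (-0.80 ± 0.063). The members of the VEGF family thus split, Vegfb and Vegfd higher and Vegfc lower. In 8 of the 9 rises the untreated wildtype mean was the lowest of the 4 groups, against 323 of all 418 rises. After cisplatin Fgf7 (-1.08 ± 0.076) and Vegfd (-1.01 ± 0.24) were lower in Rb null cells, Vegfb was higher (0.66 ± 0.21), and Kitl (0.35 ± 0.22) was not called.

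In the TGF-beta family 3 of 39 genes were higher and 4 lower. The ligand genes Tgfb2, with 223, 230.1 and 242 against 529, 485 and 690.0 (log2 -1.24 ± 0.17), and Tgfb3, with 3241, 3383 and 2903 against 5008, 5302 and 6006 (-0.77 ± 0.094), were lower, as were the inhibitor genes Fstl3 (-0.94 ± 0.10) and Nbl1 (-0.66 ± 0.10). The activin subunit gene Inhbb (0.80 ± 0.11), the latent TGF-beta binding gene Ltbp1 (0.82 ± 0.091) and the coreceptor gene Eng (0.66 ± 0.10) were higher. Of the called genes of this family 0 were called the same way after cisplatin. Inhbb (-1.06 ± 0.11) and Ltbp1 (-0.62 ± 0.091) were then lower in Rb null cells. Wnt genes were lower for 4 of 32, and 3 of these make or secrete ligands: Wnt11 itself (-0.92 ± 0.17), the acyltransferase gene Porcn (-0.86 ± 0.18) and the secretion carrier gene Wls (-0.69 ± 0.07), with the inhibitor gene Dkk3 (-0.67 ± 0.11). The matrix protein gene Ccn5, a Wnt target, was higher (0.93 ± 0.21), and without Rb null replicate 3 the higher Wnt genes numbered 3. Of the called Wnt genes 0 were called the same way after cisplatin, and Ccn5 was then lower (-1.09 ± 0.21). In the Notch pathway the ligand gene Jag1 had 525, 569 and 507 against 1277, 1357 and 1268 (-1.27 ± 0.082), and the target gene Hey1 (-1.40 ± 0.28) and the ligand gene Jag2 (-0.63 ± 0.18) were lower. Dlk1, a noncanonical ligand and preadipocyte gene, had 737, 633 and 762 against 209, 237 and 263 (1.55 ± 0.13), and Rbpj, the DNA-binding factor of the pathway, was higher (0.65 ± 0.077). Without wildtype replicate 1 the higher genes of the Hedgehog and Notch list numbered 2 in place of 4. After cisplatin Jag1 (0.96 ± 0.082) and Jag2 (0.94 ± 0.18) were higher in Rb null cells, and the differences between the comparisons passed (adjusted p = 8.95e-09 and 3.07e-04).

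Of 16 imprinted genes, expressed from a single parental copy, 4 were lower and 1 higher. Mest had 562, 575 and 612 on Rb null arrays and 1453, 1589 and 1461 on wildtype arrays (log2 -1.35 ± 0.078), and the noncoding RNA Meg3 had 1788, 1798 and 1824 against 4115, 3587 and 3501 (-1.04 ± 0.079). Dlk1, which lies beside Meg3 and is expressed from the opposite parental copy, was higher, as given above. Nnat (-0.80 ± 0.13) and Impact (-0.79 ± 0.083) were lower, and after cisplatin 5 imprinted genes were called higher in Rb null cells, with Mest at 0.96 ± 0.078 and Impact at 0.89 ± 0.083. In the IGF axis the binding protein gene Igfbp2 had 1950.1, 2144 and 2061 against 4741, 4216 and 4019 (-1.07 ± 0.085), and Pappa, whose product cleaves IGF binding proteins, was lower (-1.03 ± 0.11). Igfbp4, the chief substrate of Pappa's product, was higher (0.73 ± 0.10) but lower after cisplatin (-2.46 ± 0.10). Of 38 growth arrest genes, 6 were higher and 1 lower. Gas2 had 177, 176 and 215 against 45.4, 62.3 and 67 (1.55 ± 0.17), Cavin2 5539.9, 6056 and 5846 against 2235, 2264 and 2341 (1.35 ± 0.064), and Gas1 was higher by 0.90 ± 0.24. After cisplatin Gas2 (-1.36 ± 0.17) and Gas1 (-1.17 ± 0.24) were lower in Rb null cells.

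Of 35 channel and transporter genes, 6 were higher and 3 lower. Beside Aqp1, the drug efflux pump gene Abcb1b had 278, 307 and 295 on Rb null arrays and 88.1, 121 and 76.9 on wildtype arrays (log2 1.54 ± 0.17), and it was higher after cisplatin as well (1.12 ± 0.17). The nucleoside transporter gene Slc29a1 had 953, 1017 and 885 against 413, 412 and 382 (1.22 ± 0.10), and the potassium channel gene Kcnn4 was higher by 1.00 ± 0.18. The chloride transporter genes Clcn3 (-0.82 ± 0.16) and Clcn5 (-0.80 ± 0.092) and the ATP-gated channel gene P2rx4 (-0.70 ± 0.08) were lower. Of 44 genes of G protein signalling 3 were higher, led by the sphingosine phosphate receptor gene S1pr3 (1.21 ± 0.10), and 5 lower, Rgs16 (-1.22 ± 0.066) and the endothelin gene Edn1 (-0.76 ± 0.13) among them beside Pde10a. S1pr3 was again higher after cisplatin (1.18 ± 0.10), and Rgs16 (0.86 ± 0.066) and Edn1 (0.92 ± 0.13) were then higher in Rb null cells.

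Called shares in energy metabolism were 16.2% (glycolysis and hypoxia), 29.2% (lipid handling) and 6.45% (sterol and fatty acid synthesis). Over genes outside the cell cycle lists the share was 10.7%. Of 37 genes of glycolysis and the hypoxia response 4 were lower and 2 higher. Lower members were Slc2a3, described above, Hk2, the hexokinase gene, with 857, 759.7 and 828 against 1289, 1232 and 1254 (log2 -0.62 ± 0.074), and the phosphofructokinase gene Pfkp with 473, 438 and 439.5 against 932, 940.3 and 786 (-0.96 ± 0.10). The lactate exporter gene Slc16a3 (1.21 ± 0.13) and the adrenomedullin gene Adm (1.40 ± 0.092) were higher. Slc2a3 and Pfkp (-1.19 ± 0.10) were lower after cisplatin too, and Hk2 was at -0.58 ± 0.074, short of the fold minimum. Of the rises, Adm was again higher after cisplatin (0.68 ± 0.092), while Slc16a3 was lower in Rb null cells (-0.83 ± 0.13). Of 24 lipid handling genes, 5 were lower and 2 higher: Fabp3 (-1.29 ± 0.14) and the lipid droplet gene Plin2 (-0.76 ± 0.069) were lower and Lpl was higher (0.65 ± 0.18). Of 31 genes of sterol and fatty acid synthesis 2 were higher, Idi1 (0.91 ± 0.087) and the cholesterol carrier gene Stard4 (0.79 ± 0.12). Limma called 0 of 68 respiratory chain genes, 0 of 38 proteasome genes and 0 of 42 cytosolic ribosomal protein genes, and at an unadjusted p under 0.05 there were 8 higher and 19 lower, 1 and 9, and 1 and 2. Under median centring 1 proteasome gene and 1 ribosomal protein gene were lower.

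The stress response lists had called shares of 14.9% (antioxidant), 11.4% (amino acid), 10.0% (chaperone) and 6.25% (endoplasmic reticulum), against 10.7% outside the lists. The shares of lower genes in the endoplasmic reticulum (6.25%), antioxidant (6.38%) and chaperone (7.5%) lists were near the background of 5.2%. In the amino acid and integrated stress response 5 of 44 were lower and 0 higher (8 higher at an unadjusted p under 0.05 with limma): the death-linked transcription factor gene Ddit3 had 419, 281 and 316 against 807, 763 and 894 (log2 -1.27 ± 0.13), Nupr1 1050.3, 993 and 1053 against 2401, 2272 and 2206 (-1.14 ± 0.069), and the arginine transporter gene Slc7a3 was at -1.07 ± 0.13. Trib3 (-0.65 ± 0.13) and Slc1a4 (-0.62 ± 0.12) were lower by less. Of 48 genes of the endoplasmic reticulum and its stress response 3 were lower, Creb3 (-0.81 ± 0.061), Dnajb9 (-0.61 ± 0.071) and Kdelr3 (-0.61 ± 0.084), and 41 of the 48 differences lay below 0. The small heat shock protein gene Hspb1 had 4388, 4096 and 3864 against 11018, 9593 and 10700.0 (-1.34 ± 0.072, adjusted p = 3.84e-09), and its relative Hspb8 was lower (-0.79 ± 0.068). These were among 3 lower and 1 higher of 40 chaperone genes, and the higher one, Fkbp5 (0.61 ± 0.13), lost its call under quantile normalization and median centring. Antioxidant genes were called in both directions, 4 of 47 higher and 3 lower: the haem oxygenase gene Hmox1 had 538, 585 and 605 against 1427, 1302 and 1187 (-1.16 ± 0.093) and Mt2 was lower (-0.94 ± 0.17), while the peroxiredoxin gene Prdx4 (0.93 ± 0.07) and the quinone reductase gene Nqo1 (0.77 ± 0.087) were higher. After cisplatin Ddit3 was higher in Rb null cells (0.89 ± 0.13), Nupr1 (-0.96 ± 0.069) and Mt2 (-1.30 ± 0.17) were again lower, and Hspb1 (0.10 ± 0.072) was not called.

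Among 40 cytokine and NF-kB genes 7 were lower and 2 higher. Il11, Lif and Il6, ligands of the IL6 family, were among the lower: Il11 had 91.7, 100.5 and 82.9 on Rb null arrays and 278, 288 and 318 on wildtype arrays (log2 -1.58 ± 0.12), Lif 209, 356 and 354 against 894, 793 and 647 (-1.34 ± 0.17), and Il6 81.8, 41.6 and 57.4 against 153, 164 and 138 (-1.23 ± 0.18). The receptor gene Osmr, of the same family, was higher (0.67 ± 0.071), and the prostaglandin synthase gene Ptges was higher (0.72 ± 0.10). Without Rb null replicate 3 or without wildtype replicate 3 the higher members numbered 4. After cisplatin Lif was higher in Rb null cells (0.66 ± 0.17), and Il11 (-0.077 ± 0.12) and Il6 (0.11 ± 0.18) were not called. Chemokine genes were lower for 3 of 15, Ccl7 (-1.09 ± 0.16), Cxcl14 (-0.75 ± 0.11) and Cx3cl1 (-0.73 ± 0.092), and higher for 2, Cxcl12 (0.59 ± 0.091) and the receptor gene Ackr3, which binds its product. Cxcl12 lost its call without Rb null replicate 3, without wildtype replicate 1 and without wildtype replicate 2. Of 37 immediate early and Krüppel-like factor genes 5 were higher and 3 lower, and the EGR family split: Egr1 had 1259.5, 1647 and 1729 against 934, 889.8 and 736 (0.84 ± 0.12) and Egr2 had means of 291 ± 8.15 against 673 ± 15.3 (-1.18 ± 0.14). Klf4 had 809.7, 563 and 745 against 238, 328 and 319.9 (1.23 ± 0.13), and the mRNA decay gene Zfp36l2 was higher (1.10 ± 0.071). With each array centred on its median 6 members of that list were lower.

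Of 34 interferon response genes, 5 were higher and 1 lower. Rtp4, a receptor transport protein gene, had 338, 364 and 331 against 118, 128 and 91 (log2 1.54 ± 0.24), the RNA-binding Ifit2 had 222, 201 and 218 against 100.1, 104 and 63.2 (1.20 ± 0.20), and the dNTP hydrolase gene Samhd1 was higher by 0.98 ± 0.15. Ifi202b, a DNA-binding p200 family gene, had 369, 425 and 419 against 242, 226 and 227 (0.77 ± 0.091), and its difference after cisplatin was much larger (4.43 ± 0.091, adjusted p of the difference between comparisons = 2.15e-10). Ifi30, a lysosomal thiol reductase gene, was lower (-0.78 ± 0.065). In the comparison after cisplatin Ifi30 was higher in Rb null cells (0.86 ± 0.065) and Rtp4 was again higher (0.66 ± 0.24). Ifit2 (0.11 ± 0.20) and Samhd1 (-0.031 ± 0.15) were then not called. Of 15 antigen presentation genes the class I gene H2-D1 (1.20 ± 0.15) and the peptide transporter gene Tap1 (0.88 ± 0.10) were higher and H2-DMa (-0.64 ± 0.14) lower. Complement and coagulation genes were lower for 4 of 16, including Clu (-1.24 ± 0.14, whose probes may bind related transcripts) and the tissue factor gene F3 (-0.74 ± 0.091), and higher for 2, the lectin pathway protease gene Masp1 (1.24 ± 0.078 on the probe set used) and C5ar1 (0.90 ± 0.22). Of these called genes, 2 were called the same way after cisplatin and 2 the opposite way, C5ar1 (-1.08 ± 0.22) among the latter.

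Of 33 macrophage and leukocyte genes, 7 were higher and 2 lower in untreated Rb null cells. Pf4, a platelet and macrophage chemokine, had 547, 569.6 and 552 on Rb null arrays and 272, 245 and 227 on wildtype arrays (log2 1.14 ± 0.087), and the lysozyme gene Lyz2 had 2136, 2248 and 2237 against 1062, 1042 and 1266 (0.97 ± 0.078). The lectin genes Clec4d (0.63 ± 0.12) and Clec7a (-0.71 ± 0.17) went opposite ways. The higher genes numbered 4 without Rb null replicate 1, with quantile normalization and with median centring, and with the pseudocount at the 25th percentile 3 were higher and 1 lower, where neither Clec4d (0.52) nor Clec7a (-0.56) was called. The 12 macrophage markers summed to 7466 to 7799.5 on Rb null arrays and 5521 to 5877 on wildtype arrays, and 3 of them were higher, while Csf1r, the receptor that sustains macrophages, had means of 1439.8 and 1274, and their part in other results was not tested. After cisplatin the order was reversed, with sums of 5952 to 6259.8 in Rb null and 11502 to 12049.7 in wildtype cells and 19 of the 33 genes lower in Rb null cells, Lyz2 (-1.93 ± 0.078) and Pf4 (-1.29 ± 0.087) among them. The differences between the comparisons passed, with adjusted p = 4.05e-10 for Lyz2 and 8.21e-09 for Pf4.

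The position of called genes in the genome was described last. Among the 20 tested genes on either side of Rb1 on chromosome 14, 5 of 40 were called (12.5%, against 10.7% of genes outside the cell cycle lists). All 5 are named, which for 4 of them was decided after their values were seen: Bmp1, Slc25a30, Tsc22d1, Pcdh20 and Dis3, of which Pcdh20 (log2 1.07 ± 0.20) and the exosome nuclease gene Dis3 (0.98 ± 0.071) were higher in Rb null cells after cisplatin too. On the X chromosome, looked at because of the Xist difference and after its values were seen, 26 of 224 genes were lower (11.6%) and 11 higher (4.91%), against 5.01% lower and 5.5% higher on the other chromosomes. The lower share of the X chromosome was the largest of the 20 chromosomes with at least 50 tested genes, and Bex1, Gpm6b, Srpx2, Slc7a3, Tspan6, Gla, Porcn, Clcn5 and Gpc4 belonged to it. After cisplatin, where both genotypes had Xist, 12.1% of X-linked and 13.8% of other genes were lower in Rb null cells, and 8 X-linked genes were lower in both comparisons. The median log2 difference of X-linked genes in untreated cells was -0.034, against -0.021 elsewhere.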

How the data were processed

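Expression was measured with Affymetrix arrays in 4 groups of 3 arrays, and each array's group was taken from its title. The deposited values are MAS5 signal intensities on a linear scale, per the submitters' processing notes, and the 2% trimmed mean of each array lay between 500.1 and 500.2, so the authors had scaled the arrays to a common level. Of 22690 probe sets, 64 controls were left out, 20380 had a single gene symbol in the platform annotation, 691 had several and 1555 none. Values were taken as log2(signal + 10.4), where 10.4 is the 10th percentile of all signals, and the 40% of probe sets with the lowest mean were left out, leaving 13575.

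The 4 group means were fitted over 12 arrays with limma 3.58.1 (R 4.3.3; lmFit, eBayes with a trend), Benjamini-Hochberg adjustment ran over all tested probe sets, and a call needed an adjusted p under 0.05 and 1.5-fold. The groups compared were the untreated genotypes, the cisplatin-treated genotypes and the difference between these comparisons. A gene was represented by the tested probe set with the highest mean signal, with sets whose names mark cross-hybridizing probes used last. The number of arrays limits the precision. On simulated data with 200 of 13575 probe sets changed, the fit recovered 94% of 2-fold rises and 88.7% of 2-fold falls. These are for the untreated comparison. Rises of 1.5-fold (41.3%) lie at the fold minimum itself, which bounds their recovery.

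The gene lists and the genes to describe were chosen with earlier results of these data known. The rule for naming genes took the 15 largest rises and falls outside the cell cycle and sex-linked lists whose arrays did not overlap, all called members of a list with up to 6 calls, otherwise the 4 largest in each direction, and the targeted, sex-linked and fibroblast genes, and the text describes most but not all of these; Mapk13, Casp8ap2 and called neighbours of Rb1 were added after their values were seen. Replicate numbers were not used to pair arrays, since the deviations of same-numbered arrays correlated at -0.159, 0.109 and -0.186. Alternatives changed the pseudocount, filter, scaling, arrays, fold minimum and probe sets, and are given with the closing observations.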

Additional observations from a re-analysis of the deposited data

Results flagged for a closer look

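For 81 genes outside the cell cycle lists the genotype difference was called in opposite directions in untreated and cisplatin-treated cells. The test of the difference passed for all 81, an outcome that opposite calls nearly fix in advance. The 42 named in the text are given here by the log2 genotype difference in untreated cells minus that after cisplatin, and no explanation was tested.

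The difference was positive for the water channel gene Aqp1 (3.91) and the receptor gene Pdgfra (2.16), and for genes of matrix, cartilage and proteases: Col10a1 3.04, Col6a3 2.69, Mmp3 2.33, Smoc2 2.21, Ccn5 2.02, Mgp 1.86, Loxl3 1.61, Adam8 1.55 and Col6a1 1.53. The same sign was seen for growth factor and growth arrest genes, with Igfbp4 at 3.19, Gas2 at 2.91, Fgf7 at 2.56, Vegfd at 2.29, Gas1 at 2.07, Inhbb at 1.86 and Ltbp1 at 1.45. Leukocyte and other genes followed, with Lyz2 at 2.90, Pf4 at 2.42, Prrx1 at 2.07, Slc16a3 at 2.05, C5ar1 at 1.98, Clec4d at 1.97 and Khdrbs1 at 1.70.

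The opposite sign was largest for Lce1f, at -5.61, Cd200, at -3.66, and Bex1, at -3.27. It was also seen for Hoxc4 (-2.68), Mest (-2.31), Jag1 (-2.23), Malat1 (-2.22), Ddit3 (-2.16), Rgs16 (-2.08), Lif (-2.0), Cnn1 (-1.92), Dnajb9 (-1.70), Impact (-1.68), Edn1 (-1.68), Ifi30 (-1.64), Jag2 (-1.57) and Kdelr3 (-1.28).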

How the results depend on the processing

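With the lowest 60% of probe sets left out, 688 probe sets were higher and 390 lower, and 283 and 243 genes outside the cell cycle lists; without a fold minimum 2451 and 2147 probe sets and 1228 and 1323 genes, and with a 2-fold minimum 434 and 164 probe sets and 121 and 103 genes. The other alternatives kept these counts within 1.5 times. Leaving out 1 array gave 1023 to 1094 probe sets higher and 621 to 675 lower, and 407 to 452 and 396 to 420 genes outside the lists. The replicate block, fitted on the untreated arrays, gave 1001 and 670 probe sets and 403 and 407 genes; not every array correlated best with its own number, and the numbers did not pair the arrays. Of the genes named and called, 193 of 218 lost no call under the alternatives other than the 2-fold minimum, and 0 turned direction. Genes whose probe set an alternative left out were not counted there, and the choice of all tested probe sets gave no result by gene. Jag2 lost its call with the replicate block (-0.63, adjusted p = 0.0737, limma). Of 1870 list counts recomputed, 283 moved by over 1.5 times.

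Leaving out 1 array ended some calls. Without Rb null replicate 1 these were Cnn1 (-0.53), Foxf1 (0.46), Kdelr3 (-0.55), Trib3 (-0.56), Slc1a4 (-0.55), Fkbp5 (0.48), Crmp1 (-0.83), Ptprz1 (0.63) and Malat1 (-0.60); without replicate 2 Dkk3 (-0.55), Hk2 (-0.57), Dnajb9 (-0.56) and Bok (0.58); without replicate 3 Des (-0.61), Jag2 (-0.40), Cxcl12 (0.56), H2-DMa (-0.58), Ptprz1 (0.60), Epha4 (-0.54) and Bok (0.58). Without wildtype replicate 1 they were Des (-0.77), Rbpj (0.57), Kdelr3 (-0.51), Slc1a4 (-0.53), Gar1 (0.47), Cxcl12 (0.54), H2-DMa (-0.55), Clec4d (0.56) and Ptprz1 (0.56). Without replicate 2 they were Foxf1 (0.54), Lpl (0.53), Cxcl12 (0.53) and Ptprz1 (0.67), and without replicate 3 Des (-0.70), Eng (0.55), Jag2 (-0.54), Trib3 (-0.56), Fkbp5 (0.56) and Bok (0.51). With the pseudocount at the 25th percentile 11 calls ended: Jag2 (-0.52), Msx2 (-0.58), Foxf1 (0.51), Lpl (0.56), Slc1a4 (-0.57), Fkbp5 (0.58), H2-DMa (-0.49), Clec7a (-0.56), Clec4d (0.52), Epha4 (-0.57) and Bok (0.58). Median centring ended those of Foxf1 (0.58), Fkbp5 (0.57), Cxcl12 (0.56) and Bok (0.56), and quantile normalization those of Fkbp5 (0.57) and Bok (0.58). The cause of these changes was not tested. Weak signals and the sharing of 1 RNA by the hybridizations limit what the p-values cover.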
